A study of Homo sapiens with 6 samples.

Results

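The plasminogen activator system and tissue factor were followed as 8 genes in A2780 cells, a human ovarian cancer line. The genes were taken by name: PLAU, PLAT, PLAUR, SERPINE2, SERPINI1, F3, TFPI and TFPI2, which are 8 of the 44591 genes counted. Poly(A) RNA had been sequenced in 6 libraries of wild-type cells, 3 untreated and 3 treated with human recombinant CRMP2 (r-CRMP2) at 40 ng/ml for 48 h, all kept in DMEM with fetal bovine serum. CRMP2, the product of DPYSL2, is a microtubule-associated protein that the study examined as a factor released by fibroblasts of the tumor. All libraries come from 1 cell line, the labels name no vehicle for the controls, and they do not say whether the 3 libraries of a group came from separate cultures, so p-values measure the spread between these samples only. All 8 genes passed the filter on low counts.

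Plasminogen activators are secreted serine proteases that cut plasminogen into plasmin, which dissolves fibrin and helps cells cross matrix. Urokinase (PLAU) works at the cell surface bound to its receptor uPAR (PLAUR), whereas tissue-type activator (PLAT) acts mainly on fibrin, and serpins block both by forming a covalent complex with the protease. Tissue factor (F3) is the membrane protein that starts coagulation by binding factor VII, and tissue factor pathway inhibitor (TFPI) shuts that complex down. Urokinase, its receptor and tissue factor are known for their link to invasion and to thrombosis in ovarian and other cancers.

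The libraries held between 21888530 and 25711353 counts, and the 8 genes together took between 0.0436% and 0.0753% of a library. The library with the most counts, r-CRMP2 replicate 3, had the fewest genes with a count, 22438 against 25152 to 26302 in the others. Each gene had between 181 and 7666 counts per library. Levels are given as CPM, a count rescaled so that all libraries have the same sum, with TMM factors, which trim extreme genes. Scaling matters here: the median log2 fold change of all 16222 genes tested was -0.03 with TMM, but -0.34 when only library size was used. As a check of the cell type, KRT7, KRT8 and KRT18 were abundant. A mean of at least 1 TPM (counts per gene length, scaled to a common total) was reached by 8 of 10 ovarian epithelial markers. It was also reached by 9 of 10 fibroblast markers, so this count does not tell the types apart. PAX8 had a mean of 2.44 TPM in untreated and 1.80 TPM in treated libraries, and WT1 and CDH1 reached at most 3 and 5 counts in any library. The summed level of the 10 epithelial markers was 4237 to 4445 TPM in untreated and 3468 to 3802 TPM in treated libraries. Nearly all of it was KRT7, KRT8 and KRT18. With TMM, of the 8 tested, KRT18 and CLDN4 were higher, KRT7 and MUC16 lower, and 4 did not pass. Markers of other cells moved with treatment too: the summed level of 10 fibroblast markers was 260.2 to 296 TPM in untreated and 182 to 195 TPM in treated libraries, a drop that lay mostly in COL1A1 (mean 172 and 104 TPM). With TMM, of the 9 tested, PDGFRA, COL1A2, LUM and THY1 were higher, COL1A1, PDGFRB and POSTN lower, and 2 did not pass. The 7 endothelial markers summed to 4.32 to 4.65 TPM and 0.973 to 1.59 TPM. The 6 leukocyte markers summed to 31.2 to 36.1 TPM and 79.3 to 80.2 TPM, nearly all of it CD68, while the defining marker PTPRC had at most 4 counts. The part of these markers in the results was not tested. The labels name no cells other than A2780 in any library. In bulk RNA, fewer cells of a type and less RNA per cell cannot be told apart.

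Of the 8 genes, 5 rose with r-CRMP2, none fell and 3 did not pass the test (edgeR's quasi-likelihood test, adjusted p threshold of 0.05 over all genes tested). PLAUR rose 3.22-fold, F3 1.96-fold, SERPINE2 1.70-fold, TFPI 1.38-fold and TFPI2 1.33-fold, while PLAU, PLAT and SERPINI1 did not pass. The background was high, because 58.2% of all genes tested passed in either direction, against 62.5% of these 8. All 8 fold changes were above 0, so none was lower at an unadjusted p of 0.05 either, nor by DESeq2. By direction, 28.2% of all genes rose and 30.1% fell. Over the 8 genes the median log2 fold change was 0.44, beside -0.03 over all genes tested. These 8 genes were chosen with earlier results of these data known, so the comparison with all genes only describes them. Without TMM, by library size alone, 3 of the 8 genes rose, namely PLAUR, SERPINE2 and F3. Under that scaling, 10620 of all 16222 genes tested passed in either direction. With the added threshold that the study used, a log2 fold change over 1, only PLAUR was upregulated, beside 5.12% of all genes in that direction, 8.86% in the other and 14.0% in either. For 6 of the 8 genes the treated and untreated libraries did not overlap in TMM-scaled CPM, which also held for 64.2% of all genes tested. On the TPM scale 5 of the 8 overlapped, SERPINE2, TFPI and TFPI2 among them, while PLAUR and F3 were higher and PLAU lower in every treated library.

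**Figure D1:**
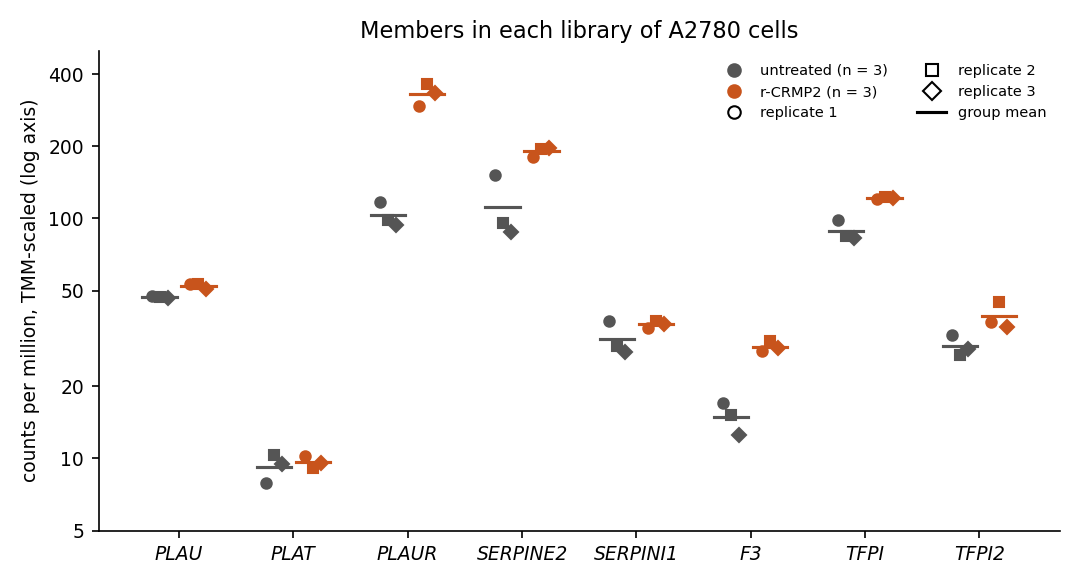
Level of each of the 8 genes in each library, in TMM-scaled CPM on a log axis. Grey marks are the 3 untreated and orange marks the 3 r-CRMP2 libraries, marker shapes are replicate numbers and lines are group means. PLAUR stands apart, at 93.5 to 117 CPM untreated and 295 to 365 CPM with r-CRMP2, whereas the groups overlap for PLAT and SERPINI1.

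PLAUR, which encodes the urokinase receptor uPAR (chromosome 19, 44150247 to 44174498 in the deposited hg19 coordinates), had 117, 98.5 and 93.5 CPM in untreated replicates 1, 2 and 3. It had 295, 365 and 334 CPM in r-CRMP2 replicates 1, 2 and 3. Every treated library was thus above every untreated one, by a gap far wider than the spread within either group. The mean rose from 103 ± 12.2 to 331 ± 34.97 CPM (mean ± SD of 3 libraries), which is 1.69 on the log2 scale (SE 0.13; edgeR, adjusted p = 8.60e-12). PLAUR was also the only one of the 8 genes to pass a test against a fold change of 2 (adjusted p = 1.15e-06 from edgeR's glmTreat). Of all 16222 genes tested, 836 passed it.

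The ligand of this receptor did not pass the test. PLAU, the urokinase gene (chromosome 10, 75670859 to 75677259), had 47.7, 47.0 and 46.8 CPM in the untreated libraries and 53.3, 53.3 and 50.7 CPM in the treated libraries. The groups did not overlap, but the shift was small, with a log2 fold change of 0.15 (standard error 0.03) that missed the threshold (edgeR, adjusted p = 0.0562). The shift passed with RLE size factors (edgeR, adjusted p = 0.0334) and with DESeq2 (adjusted p = 0.0437), and its sign turned with library size alone (log2 fold change -0.16). On the TPM scale the mean was also lower with treatment, from 42.7 ± 0.360 to 37.8 ± 1.91 TPM (mean ± SD of 3 libraries). PLAU lies wholly inside C10orf55, a gene on the opposite strand, and transcripts of both share a stretch of 402 bases at 100% identity in GENCODE. The library kit does not mark strand, so reads of both cannot be told apart, and C10orf55 counts came to 9.03% of those of PLAU on average.

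PLAT, the gene of tissue-type plasminogen activator (chromosome 8, 42032236 to 42065242), was the lowest of the 8 genes. It had 7.91, 10.4 and 9.50 CPM in untreated and 10.3, 9.15 and 9.58 CPM in treated libraries, so the groups overlapped. The log2 difference of 0.06 (SE 0.12; edgeR, adjusted p = 0.682) was smaller than its standard error. Whether PLAT differs from PLAUR in its response was not tested.

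SERPINE2 encodes protease nexin-1, a serpin that inhibits thrombin and urokinase at the cell surface (chromosome 2, 224839765 to 224904036). It had 152, 96.1 and 88.0 CPM in the untreated libraries and 181, 195 and 196 CPM in the treated ones. Untreated replicate 1 was the closest to the treated libraries and did not reach them in CPM, but in TPM it had 119 and the lowest treated library 118, so the groups overlapped on that scale. The mean rose from 112 ± 34.7 to 191 ± 8.30 CPM (mean ± SD of 3 libraries), which is 0.77 on the log2 scale (SE 0.25; edgeR, adjusted p = 4.55e-05). For all of the 8 genes but PLAT, untreated replicate 1 was the highest untreated library in CPM. Leaving it out raised the log2 fold change of each of them. Without untreated replicate 1, the log2 fold change of SERPINE2 was 1.05 and that of F3 was 1.07. Thus 3 genes in place of 1 passed the fold threshold of 1. Without r-CRMP2 replicate 1, 2 genes passed it, PLAUR and F3 (1.01).

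SERPINI1 encodes neuroserpin, a serpin best known as an inhibitor of tissue-type plasminogen activator in the nervous system (chromosome 3, 167453432 to 167543357). It had 37.2, 29.5 and 27.7 CPM in untreated and 34.9, 37.3 and 36.4 CPM in treated libraries. Untreated replicate 1 lay among the treated libraries, and the log2 fold change of 0.20 (standard error 0.13) missed the threshold (edgeR, adjusted p = 0.0784). Without that library it was 0.34 and passed (edgeR, adjusted p = 0.00273).

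F3, which encodes tissue factor (chromosome 1, 94994732 to 95007413), had 16.97, 15.2 and 12.6 CPM in the untreated libraries and 28.0, 30.8 and 28.8 CPM in the treated libraries. The groups were well apart, and the mean rose from 14.9 ± 2.21 to 29.2 ± 1.47 CPM (mean ± SD of 3 libraries). This is 0.97 on the log2 scale (SE 0.13; edgeR, adjusted p = 1.19e-07), just under the fold threshold. With library size alone it was 0.66.

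TFPI and TFPI2, which encode Kunitz-type protease inhibitors, rose less. TFPI (chromosome 2, 188328957 to 188419232), the inhibitor of the tissue factor complex and factor Xa, had 98.1, 84.7 and 82.6 CPM untreated and 121, 123 and 122 CPM with r-CRMP2. The treated libraries were nearly equal and all above the untreated ones, by 0.46 on the log2 scale (SE 0.08; edgeR, adjusted p = 1.16e-05). TFPI2 (chromosome 7, 93514709 to 93520303), whose product inhibits plasmin and is deposited in the matrix, had 32.7, 26.9 and 28.6 CPM untreated and 37.2, 44.99 and 35.4 CPM treated. The lowest treated library was just above the highest untreated one, and the log2 difference was 0.41 (SE 0.13; edgeR, adjusted p = 0.000972). With library size alone neither TFPI (0.15, edgeR, adjusted p = 0.0514) nor TFPI2 (0.10, edgeR, adjusted p = 0.349) passed. An antisense gene that overlaps TFPI had at most 25 counts and a noncoding gene that overlaps TFPI2 at most 4. Short stretches of TFPI transcripts, up to 211 bases, matched 5 other genes at 95% identity or more.

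**Figure D2:**
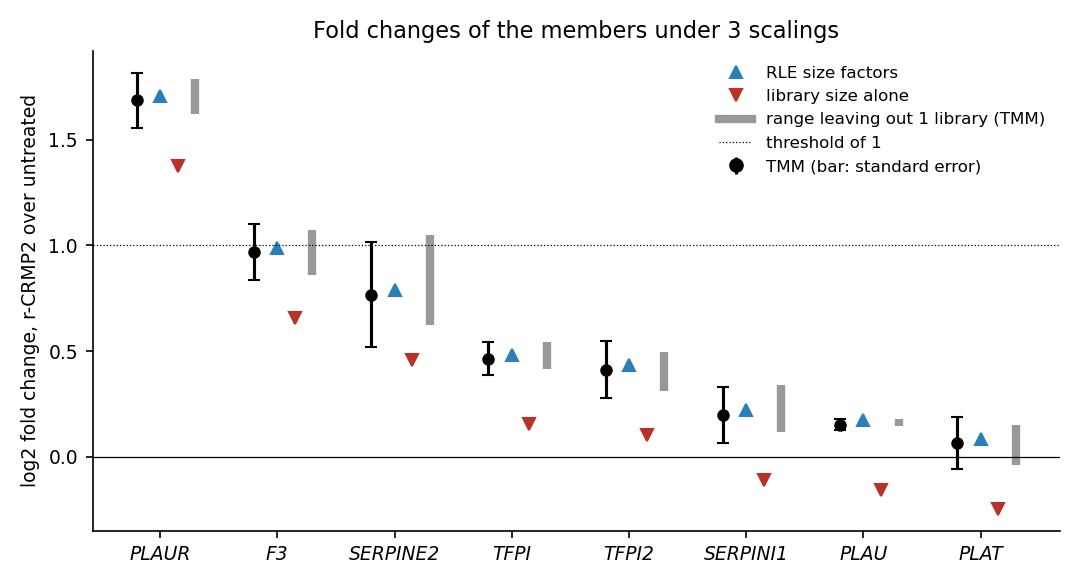
Log2 fold change of r-CRMP2 over untreated for the 8 genes, ordered by size. Black points with standard error bars are with TMM scaling, triangles with RLE size factors or with library size alone, and grey bars span the 6 fits that each left out 1 library. PLAUR, F3, SERPINE2, TFPI and TFPI2 lie above 0 under every scaling drawn, while PLAU, PLAT and SERPINI1 fall below 0 with library size alone.

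Ratios between 2 genes within a library do not depend on the scaling of the library. The ratio of PLAUR to PLAU, in TPM, was 3.28, 2.81 and 2.68 in untreated and 7.42, 9.17 and 8.82 in treated libraries, with every treated library above every untreated one. The ratio of F3 to TFPI was 0.311, 0.323 and 0.274 in untreated and 0.418, 0.450 and 0.425 in treated libraries. The ratio of F3 to TFPI2 went from 0.519 ± 0.0654 to 0.766 ± 0.0647 (mean ± SD of 3 libraries), also without overlap. F3 was thus higher relative to TFPI and relative to TFPI2 in every treated library than in any untreated one. The ratio of PLAU to SERPINE2 was 0.356, 0.554 and 0.601 in untreated and 0.333, 0.310 and 0.293 in treated libraries, lower with r-CRMP2 but close in untreated replicate 1. The ratio of PLAU to PLAT overlapped between the groups, at 6.18 ± 0.925 and 6.50 ± 0.403 (mean ± SD of 3 libraries, p = 0.5 in a two-sided exact permutation test). Of 6 ratios computed after the values of the genes were known, the 5 without overlap had p = 0.1 in the two-sided exact permutation test, the smallest that 3 against 3 libraries allow (adjusted p = 0.12 over the 6).

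**Figure D3:**
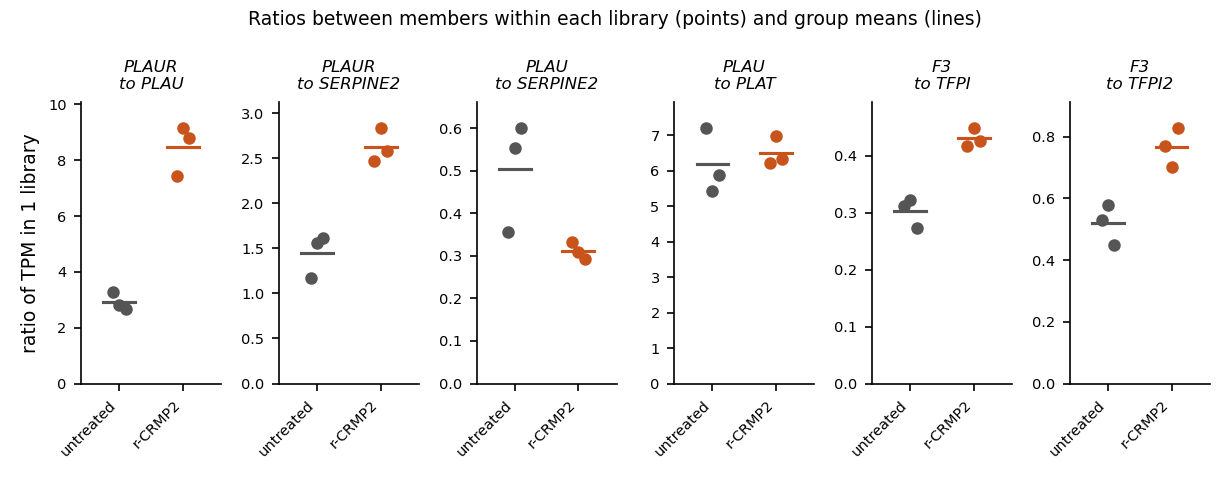
Ratio of the TPM of 2 genes within each library, with each y axis starting at 0. Points are libraries and lines are group means, grey for untreated and orange for r-CRMP2 (n = 3 in each group). The 5 ratios other than PLAU to PLAT do not overlap between the groups, and PLAUR to PLAU goes from a mean of 2.92 to 8.47.

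Levels of different genes were compared per gene length, in TPM. In untreated cells the order was PLAUR (125 ± 13.05 TPM), SERPINE2 (89.2 ± 26.3), TFPI (50.001 ± 4.04), PLAU (42.7 ± 0.360), SERPINI1 (38.6 ± 5.63), TFPI2 (29.3 ± 2.55), F3 (15.2 ± 2.12) and PLAT (7.01 ± 1.04; SD, n = 3). Of neighbours in that order, PLAUR and SERPINE2 overlapped between libraries, as did PLAU and SERPINI1. With r-CRMP2 the order was the same, and no neighbours overlapped. PLAUR took 30.5% to 32.0% of the summed TPM of the 8 genes in untreated libraries and 48.7% to 52.3% in treated libraries. The share of F3 stayed between 3.61% and 4.15% in the 6 libraries, while the sum was 357 to 455 TPM in untreated and 611 to 640.3 TPM in treated libraries.

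Promoter sequence is shown for PLAUR and F3, which had the largest fold changes, and for PLAU as a gene of the same system that did not pass. The RefSeq table of promoters (GRCh38.p14) held 7 of the 8 genes, all but PLAT, with 2 windows for SERPINE2 and for PLAU. Each line is the 250 bases before the transcription start, 5′ to 3′ on the gene's strand. Capitals mark matches on either strand to the AP-1 motif TGANTCA, to the EGR motif GCGNGGGCG and to the hypoxia-response core ACGTG or GCGTG. The PLAUR window is chr19:43670170-43670419 (minus strand), the F3 window chr1:94541760-94542009 (minus strand) and the downstream PLAU window chr10:73910882-73911131 (plus strand).
PLAUR: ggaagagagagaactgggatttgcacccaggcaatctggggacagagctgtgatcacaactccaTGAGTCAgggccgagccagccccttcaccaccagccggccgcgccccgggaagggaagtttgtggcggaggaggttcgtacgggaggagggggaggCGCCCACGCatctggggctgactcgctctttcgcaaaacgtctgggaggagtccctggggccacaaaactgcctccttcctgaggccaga
F3: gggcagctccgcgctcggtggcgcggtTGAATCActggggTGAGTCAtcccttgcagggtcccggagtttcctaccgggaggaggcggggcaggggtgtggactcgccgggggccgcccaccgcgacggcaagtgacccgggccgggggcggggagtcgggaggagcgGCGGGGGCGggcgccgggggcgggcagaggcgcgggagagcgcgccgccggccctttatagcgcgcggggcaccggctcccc
PLAU: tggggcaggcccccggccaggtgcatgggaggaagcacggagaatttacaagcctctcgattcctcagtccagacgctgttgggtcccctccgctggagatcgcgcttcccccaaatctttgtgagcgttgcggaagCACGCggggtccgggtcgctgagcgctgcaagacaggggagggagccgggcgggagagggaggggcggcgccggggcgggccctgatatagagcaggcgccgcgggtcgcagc
The PLAUR window held 1 AP-1 match, and 1 EGR match in which the last 5 bases are also its hypoxia-response match. The F3 window held 2 AP-1 matches and 1 EGR match. TFPI2, whose sequence is not shown, held 1 of each of these. Neither PLAU window, nor those of SERPINE2, SERPINI1 and TFPI, held an AP-1 or EGR match. Both SERPINE2 windows and the PLAU window above held a hypoxia-response match. Of the 35116 promoter windows in the table, 6.57% held the AP-1 motif, 8.41% the EGR motif and 43.2% the hypoxia-response core. A match describes letters and not a bound site.

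The other genes of plasminogen activation and its clearance were mostly measured as well, 15 of 20 with enough counts. Of the 15, 9 rose, 3 fell and 3 did not pass (80.0% passed, beside 58.2% of all genes tested). Their median log2 fold change was 0.52, beside -0.03 over all genes tested. This list, like those that follow, was chosen with earlier results of these data known, so its values are a description. Plasminogen itself (PLG) had at most 10 counts in a library. The highest mean TPM was that of ENO1, a glycolytic enzyme that also binds plasminogen at the surface, followed by ANXA2, an annexin that forms a plasminogen and tissue-type activator receptor with S100A10. ANXA2 had 911, 869 and 851 CPM in untreated and 1392, 1575 and 1470.2 CPM in treated libraries (log2 change 0.75, SE 0.06; edgeR, adjusted p = 1.14e-08). S100A10 moved alike (0.75, standard error 0.08), and ENO1 rose by 0.55 (standard error 0.07) on the log2 scale. Of the 15 genes, 6.67% passed both thresholds, beside 14.0% of all genes tested. The only such gene was LRP1, the endocytic receptor that takes up complexes of activators with their inhibitors. It had 594, 554 and 480.2 CPM in untreated and 1218, 1011 and 1265 CPM in treated libraries (log2 change 1.101, SE 0.13; edgeR, adjusted p = 2.77e-09). The 3 genes that fell were IGF2R, PLGRKT and ST14, with log2 fold changes of -0.51, -0.60 and -0.78. For PLGRKT the groups overlapped, with 2.77 CPM in untreated replicate 2 and 2.87 CPM in r-CRMP2 replicate 3 (edgeR, adjusted p = 0.0216). Without untreated replicate 1, untreated replicate 3 or r-CRMP2 replicate 1, 2 genes of the list fell. S100A10, PLG, IGF2R, PLGRKT and ST14 were named after their values were seen.

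Of the coagulation and protease-activated receptor genes, 13 of 20 were tested, of which 5 rose, 2 fell and 6 did not pass, so that 53.8% passed beside 58.2% of all genes tested. The median log2 fold change was 0.27. Tissue factor's partner factor VII (F7) had at most 4 counts, so it was hardly detected in these cells. The rising genes were VKORC1, PROS1, F2RL1, F2R and F10. VKORC1, which recycles vitamin K for coagulation factors, rose from 214 ± 10.5 to 454 ± 41.1 CPM (mean ± SD of 3 libraries; log2 change 1.09; edgeR, adjusted p = 2.29e-10). The thrombin receptor F2R and the receptor F2RL1, which factor Xa and the tissue factor complex can cleave, rose by 0.59 and 0.64 on the log2 scale (standard error 0.05 and 0.10). A further thrombin receptor, F2RL3, fell from 4.17 ± 0.251 to 0.905 ± 0.176 CPM (mean ± SD of 3 libraries; log2 change -2.20; edgeR, adjusted p = 1.28e-07). THBD, the gene of thrombomodulin, fell as well (-0.84, standard error 0.15). PROCR, the protein C receptor and with VKORC1 the most abundant of the list, did not pass (0.08, edgeR, adjusted p = 0.364). F2R, F2RL1, PROS1, F10, F7 and THBD were named after their values were seen.

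Among the other 36 genes whose name begins with SERPIN, 12 were tested, with 5 higher, 3 lower and 4 that did not pass, so that 66.7% passed beside 58.2% of all genes tested. Their median log2 fold change was 0.08. Those with the highest mean TPM were SERPINH1, a collagen chaperone, and SERPINB6, an intracellular inhibitor, which rose by 0.43 and 0.34 on the log2 scale. A pair of pseudogenes moved more, SERPINH1P1 upward (2.66) and SERPINB9P1 downward (-2.28), and counts of pseudogenes are uncertain because reads can be shared with their parent genes. With library size alone, 2 of the 12 rose and 6 fell, beside 10620 of all 16222 genes tested that passed in either direction. Of 11 other genes with Kunitz domains, 6 were tested, and 3 rose, APP (0.62), APLP2 (0.50) and WFIKKN1 (0.62), while none fell and 3 did not pass, beside 58.2% of all genes that passed. WFIKKN1 was named after its value was seen. APP and APLP2 encode amyloid precursor family proteins.

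**Figure D4:**
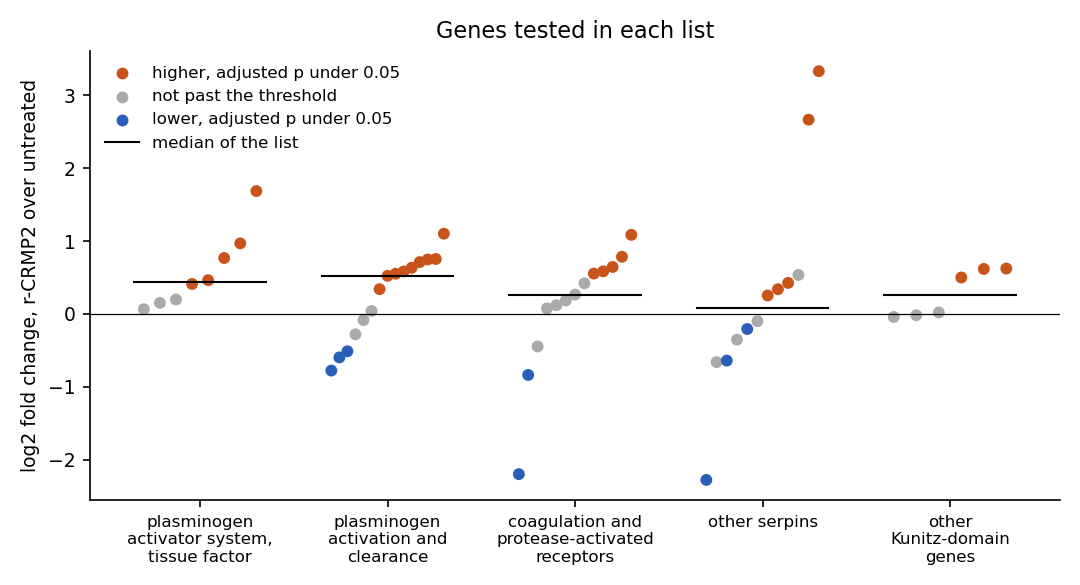
Log2 fold change of every gene tested in the 8-gene set and in 4 related lists, each point a gene and each line the median of its list. Orange points were higher and blue points lower at an adjusted p threshold of 0.05, and grey points did not pass. The medians are 0.44, 0.52, 0.27, 0.08 and 0.26 from left to right.

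The genes whose profile over the 6 libraries was nearest to that of each member were sought by the root mean square difference of mean-centred log2 CPM among 16221 genes. The nearest to PLAUR was CLK3 (0.04), to F3 MPZL2 (0.04) and to SERPINE2 NMU (0.08). For TFPI it was KPNA2 (0.03), for TFPI2 RALB (0.03), for SERPINI1 KCTD13 (0.03), for PLAU CCDC12 (0.02) and for PLAT CYB5D2 (0.03). The 6 libraries fall into 2 groups, so these distances are a description.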

How the data were processed

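Per the file headers, the authors deposited, for each library, the counts of reads on 44591 genes without normalization and TPM values. Dividing counts by gene length and rescaling gave back each TPM within 4.72e-06. Libraries were made with the NEBNext Ultra kit, which does not mark strand, and sequenced as read pairs. The submitters' processing notes name FastQC, HISAT2, DESeq2 and hg19. The counting tool and annotation are not given in the sources used here.

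Groups were tested by quasi-likelihood in edgeR 4.0.16 under R 4.3.3 with limma 3.58.1, using TMM, edgeR's low-count filter and Benjamini-Hochberg adjustment over all 16222 genes tested. Thresholds were an adjusted p of 0.05 and, as a second rule, an absolute log2 fold change of 1. Standard errors come from replicate log2 CPM with a prior count of 2. The fitting was tested on simulated data in which few genes changed, which does not test the scaling where many genes change. The members and lists were chosen with earlier results of these data known. Genes named beside the members were the 2 with the highest mean TPM of each list and up to 6 past both thresholds with a mean count of at least 50, genes that overlap a member and the nearest profile of each member. A gene that meets this rule is not reported here. The others were added after their values were seen, as said beside them. Shared sequence was sought with blastn at 95% identity over at least 150 bases. The 14 alternatives were RLE, library size alone, 2 filters, glmTreat, DESeq2 (1.42.0), limma-voom, the replicate block and leaving out each of the 6 libraries.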

Additional observations from a re-analysis of the deposited data

How the results depend on the processing

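PLAUR, SERPINE2, F3, TFPI and TFPI2 kept their sign under all 14 alternatives, and PLAUR passed under each, with log2 fold changes from 1.37 to 1.79. With library size alone, which moved the median of all genes downward, 3 members rose, TFPI (0.15) and TFPI2 (0.10) no longer passed, and PLAU (-0.16), PLAT (-0.25) and SERPINI1 (-0.11) changed sign without passing. There, 4 coagulation genes and 1 Kunitz-domain gene fell, and of the other serpins 2 rose and 6 fell. Of all 16222 genes tested, 10620 passed in either direction under that scaling. PLAU passed with RLE size factors (0.17) and with DESeq2 (0.17). When tested against 2-fold, whose stricter null lowers every count, 1 member passed, and SERPINE2 (0.77), F3 (0.97), TFPI (0.46) and TFPI2 (0.41) did not. Of all 16222 genes tested, 836 passed that test, so few calls are the background for each list. That test called 0 plasminogen genes in either direction and 0 past both thresholds, where edgeR without it called 9 upward and 3 downward. It called 0 coagulation genes upward, 1 downward and 1 past both thresholds, 2 other serpins upward and 1 downward, and 0 Kunitz-domain genes upward.

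In the 6 fits that left out 1 library, members past both thresholds numbered 1 to 3, with 3 without untreated replicate 1 and 2 without r-CRMP2 replicate 1. The log2 fold change ranged from -0.04 to 0.15 for PLAT (-0.038 without untreated replicate 1) and from 0.12 to 0.34 for SERPINI1, and the falling other serpins numbered from 1 to 3 (1 without untreated replicate 3 and without r-CRMP2 replicate 3). With the replicate block, 5 members rose, 0 fell and 1 passed both thresholds, and no member changed its call. Same-numbered libraries deviated from their group means with correlations of -0.02, 0.0038 and -0.03, and no r-CRMP2 library correlated best with its own number. No shared deviation was thus seen, but these values cannot show whether same-numbered libraries were cultured or handled together. Depth limits PLAT most, at 181 to 260 counts. Other causes of these changes were not tested.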
